A study of Mus musculus with 12 samples.

Results

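The comparison described here is that of lamin B1 knockout neural progenitors at day 9 with the same kind of cells at day 5 after delivery of Cre recombinase. It rests on 6 of the 12 libraries of the study, 3 for each day, all those labelled cKO at these times. The study asks how transcription in neural progenitors depends on lamin B1, a structural protein of the nuclear lamina. The cells were cultured mouse neural progenitors of the C57BL/6 strain, dividing cells that can give rise to neurons and glia, kept in a serum-free N2/B27 medium with the growth factors EGF and FGF-2. The cKO cells carry floxed alleles of the lamin B1 gene Lmnb1, and the Ai3 reporter, which switches on the fluorescent protein EYFP after Cre has acted. A lentivirus delivered Cre under a Sox2 promoter, so only cells in which that promoter was active could be recombined and pass the sort for EYFP. Polyadenylated RNA was taken from sorted EYFP-positive cells at 5 days in one group (cKO day 5) and at 9 days in the other (cKO day 9). Wild-type Lmnb1 cells treated with the same virus and sorted in the same way (WT, 3 libraries at each day) serve below as a yardstick for the passage from day 5 to day 9. Whether the replicates were separate cultures or animals is not stated in the labels, so every p-value below measures only the spread between these libraries, which may be technical.

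Each day has its own deposited table, so day and table cannot be told apart within a genotype. A difference between the tables that acts alike on both genotypes cancels in the cKO day change minus the WT day change, which was tested on all 12 libraries and is given beside the day change. A within-library ranking of genes gives a further view that does not depend on library scale. The libraries are bulk samples, in which fewer cells of a type and less RNA per cell cannot be told apart.

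As background, neural progenitors held in EGF and FGF-2 keep dividing because these factors signal through the ERK kinases. ERK signalling raises D-type cyclins for entry into the cell cycle and also its own inhibitors, the Sprouty and DUSP proteins. When progenitors leave the cycle they can become neurons, astrocytes or oligodendrocytes. Oligodendrocyte precursors pass through a newly formed stage before they make myelin. B-type lamins line the inner nuclear membrane beside the lamin B receptor and bind peripheral heterochromatin.

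Total deposited counts were 26720620 to 28540142 at cKO day 5 and 13315399 to 22988516 at cKO day 9. The libraries differ in a group of structural RNA features led by Gm42418, with which the protein-coding gene Lars2 moves. This group took 0.21%, 13.9% and 0.256% of counts in cKO day 5 replicates 1 to 3 and 69.2%, 0.348% and 68.0% in cKO day 9 replicates 1 to 3. The WT libraries held 0.0737% to 0.507% at day 5 and 15.5% to 34.3% at day 9, so share and day cannot be told apart in WT. The share moved unlike in the genotypes, so its part need not cancel in the difference of day changes. That part was not tested. Gm42418 and Lars2 were left out of the fits, which left 3845725 and 4121917 counts in cKO day 9 replicates 1 and 3 against 22481939 in replicate 2. Replicates 1 and 3 of day 9 had the lowest chi-square per degree of freedom over genes of the cKO pairs within a day. It was 4.54, still above sampling noise, against 53.7 to 398 for the other pairs. This measure grows with the number of counts, and these libraries held the fewest, so it does not show that they were the closest pair. Values within libraries of low and of high share are given with the results.

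Lmnb1 (chromosome 18, 56707813 to 56753424, forward strand, mm10), the targeted gene, stood at 43.0, 46.4 and 49.9 CPM (counts scaled to library size) in the 3 cKO day 5 libraries and at 54.0, 53.7 and 62.7 CPM in the 3 day 9 libraries. All 3 day 9 values lay above all 3 day 5 values, by little. The log2 fold change of 0.29 ± 0.19 (SE, n = 3 per day) was not called (edgeR adjusted p = 0.279, Benjamini-Hochberg). It was -0.03 on the log2(TPM + 1) scale of the deposited TPM (a length-scaled unit), so its direction depends on the unit. With all 12 libraries scaled together, Lmnb1 was at 41.4 to 47.5 CPM in the cKO day 5 libraries and 56.5 to 65.0 CPM in the cKO day 9 libraries, against 265 to 316 CPM and 267 to 353 CPM in the WT libraries of these days. The cKO libraries lay below every WT library at both days. Counts summed over the gene cannot locate the deleted exons.

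Across the transcriptome the cKO cells changed widely between day 5 and day 9. Of 15251 genes tested, 1615 rose (10.6%) and 2966 fell (19.4%), 30% in all (edgeR's quasi-likelihood test, called at an adjusted p under 0.05 after Benjamini and Hochberg). Among them 1278 rises and 2419 falls exceeded 2-fold, and 145 rises and 253 falls exceeded 16-fold. Tested against a 2-fold change rather than against no change, 506 genes rose and 925 fell (9.38%). The median log2 fold change of all tested genes was -0.07. Each count of rises and falls in a cKO gene list below is to be read beside the shares of 10.6% and 19.4%. The balance of rises and falls depends on scaling: 35.3% of calls were rises with TMM scaling, 50.5% with upper quartile scaling (2176 rose, 2130 fell) and 46.8% with every feature kept (1968 rose, 2234 fell). The median of all genes moved to 0.15 with upper quartile scaling, 0.07 with every feature kept and -0.28 on log2(TPM + 1). The number of calls depends on single libraries. It was 8868 without cKO day 5 replicate 2, between 1934 and 2249 without cKO day 5 replicate 3 or any 1 of the day 9 libraries, and 0 (2758 at an unadjusted p under 0.05, edgeR) when day 9 replicates 1 and 3 were both left out, a fit whose day 9 arm is 1 library assumed to vary like those of day 5.

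The largest rises were led by Enpp6 and included genes of glia and of signalling. Of the 10 largest by the rule, 8 are given here: Enpp6, Bmp4, Rasgef1b, Fa2h, Neurog2, Matn1, Gfap and Cbln2, with log2 fold changes from 9.84 down to 6.47. Cbln2, a secreted synapse organiser, went from 0.121, 0.235 and 0.231 CPM to 17.4, 19.8 and 16.6 CPM (6.47 ± 0.35). Matn1, a matrix protein of cartilage, and Rasgef1b, a guanine nucleotide exchange factor, were also near 0 at day 5 and at 7.62 to 10.5 and 20.2 to 21.4 CPM at day 9. The rule took only genes whose groups of libraries do not overlap, so every day 9 library lay above every day 5 library in each.

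The largest falls include 4 genes without a count in any cKO day 9 library: Mia2, Raet1d, Tmem37 and Fyb. Against a floor of 3 counts per library they were at least 62.5-fold, 23.6-fold, 14.3-fold and 12.7-fold lower at day 9. Mia2 was without counts in the WT day 9 libraries too, and Fyb was at 0, 0.0603 and 0 CPM there, so for these 2 genes the table and the day cannot be told apart. The other 6 were Apln, Rab26, Cd93, Tmem173, Gdf15 and Adamts14. Apln, which encodes the secreted peptide apelin, fell from 363, 299 and 418 CPM to 2.46, 2.30 and 3.14 CPM (log2 fold change -7.12 ± 0.26, edgeR adjusted p = 2.04e-04, Benjamini-Hochberg). Cd93, a transmembrane C-type lectin-like receptor, fell from 47.7, 92.7 and 66.9 CPM to 0.737, 0.535 and 0.672 CPM (-6.80 ± 0.39). Tmem173, the adaptor STING of cytosolic DNA sensing, fell from 60.9, 34.5 and 52.8 CPM to 0.491, 0.494 and 0.448 CPM (-6.66 ± 0.35). Gdf15, a secreted stress-induced cytokine, fell from 21.5, 10.1 and 18.6 CPM to 0.246, 0.206 and 0 CPM (-6.53 ± 0.62). Fyb lost its call when any 1 library other than day 5 replicate 2 was left out (edgeR adjusted p up to 0.0785, Benjamini-Hochberg); the other 9 falls kept theirs.

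**Figure D1:**
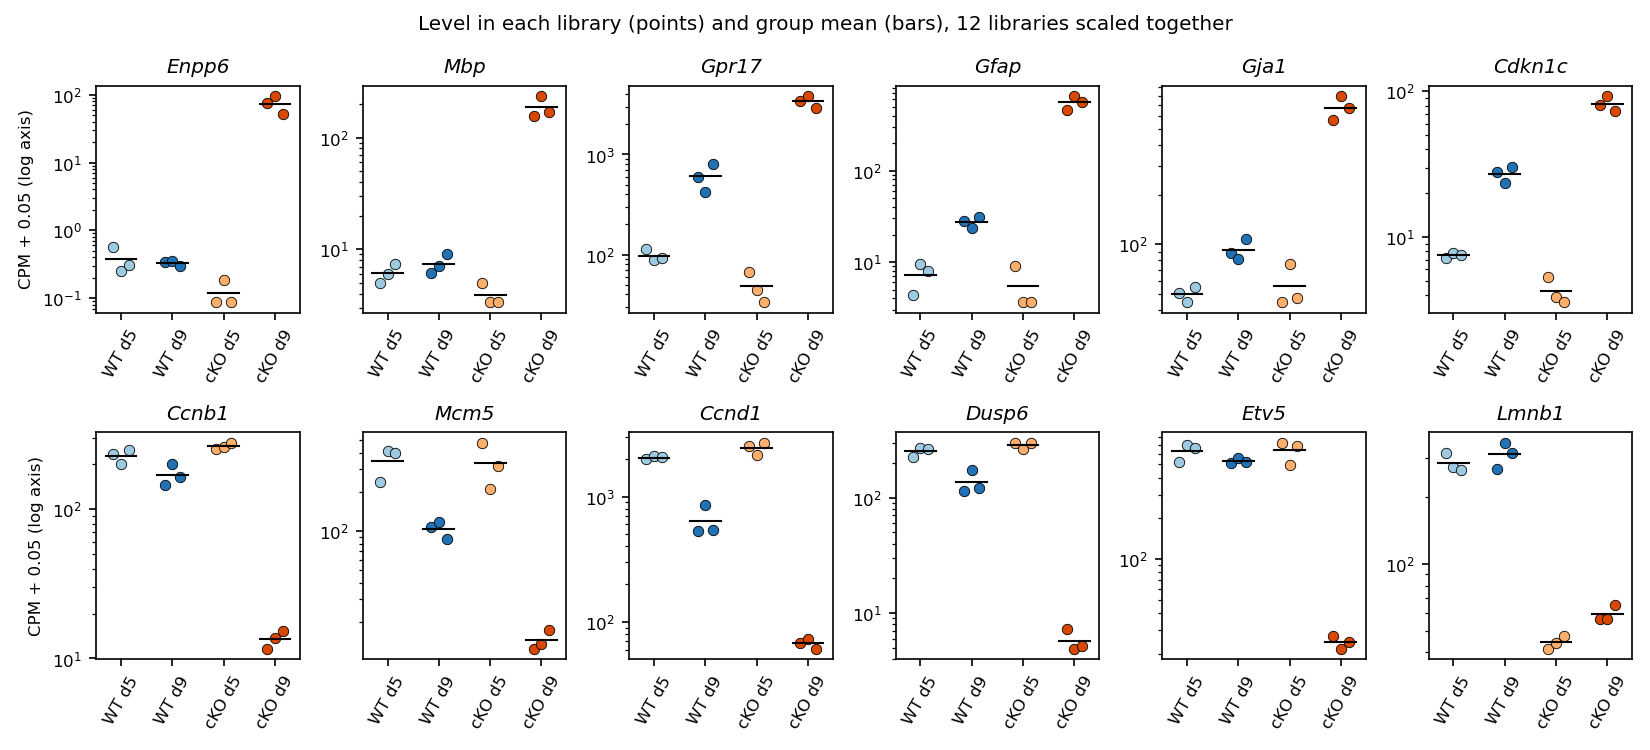
Levels of 12 genes in each of the 12 libraries (points) with group means (bars), as CPM + 0.05 on a log axis, for WT and cKO at days 5 and 9 (3 libraries a group). The cKO day 9 libraries stand apart from the other 3 groups for 11 of the 12 genes, above for Enpp6, Mbp, Gpr17, Gfap, Gja1 and Cdkn1c and below for Ccnb1, Mcm5, Ccnd1, Dusp6 and Etv5, while Lmnb1 separates by genotype.

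Genes of newly formed and myelinating oligodendrocytes showed the largest list-wide rise. Of 22 tested members, 17 rose and 0 fell, with a median log2 fold change of 3.53 against -0.07 over all genes tested. In 17 members all day 9 libraries lay above all day 5 libraries, against 19.3% of all genes. Enpp6 (chromosome 8, 46986887 to 47096762, forward strand, mm10), a choline phosphodiesterase that marks newly formed oligodendrocytes, went from 0.0402, 0.141 and 0.038 CPM to 71.9, 90.0 and 50.4 CPM. Its 3 day 5 libraries were near 0 and its day 9 libraries were far above them (log2 fold change 9.84 ± 0.53, edgeR adjusted p = 2.15e-04, Benjamini-Hochberg). Mbp (chromosome 18, 82475146 to 82585637, forward strand), myelin basic protein, went from 5.15, 3.48 and 3.50 CPM to 149, 222 and 162 CPM (5.46 ± 0.30). Bcas1, found in early myelinating cells, went from 18.7, 15.9 and 16.96 CPM to 798, 988 and 677 CPM (5.58 ± 0.24). Fa2h, which makes the hydroxylated lipids of myelin, went from 0.523, 0.611 and 0.192 CPM to 66.5, 86.1 and 63.2 CPM (7.34 ± 0.48). No day 5 library reached any day 9 library in these 4 genes.

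Other members of the myelinating list span its regulators and its late products. Myrf, the transcription factor required for myelin gene expression, rose from a mean of 8.22 to 252 CPM (log2 fold change 4.94). Mag, an adhesion protein of inner myelin, rose from 0.263 to 11.4 CPM (5.40), and Mog, a late surface protein of myelin, rose to 0.846 CPM only. The members that were not called, Tspan2, Opalin, Gpr37, Nkx6-2 and Plekhb1, had log2 fold changes between -0.54 and 0.76. Of 14456 genes tested in WT, 13.2% rose and 11.6% fell between the same days (24.9% in all). In WT cells 6 of 17 tested members rose and 0 fell, with a median of 0.52. The cKO change was higher than that of WT for 14 of the members tested for the difference, against 2.41% of all genes. They include Opalin, whose rise in cKO was not called.

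Oligodendrocyte precursor genes moved both ways, where 10.6% of all genes rose and 19.4% fell. Of 17 tested members 10 rose and 4 fell, with a median log2 fold change of 1.17. Gpr17, a receptor of precursors about to differentiate, went from 69.8, 46.1 and 35.0 CPM to 3285, 3615 and 2817 CPM, all day 9 libraries far above day 5 (6.01 ± 0.36, edgeR adjusted p = 2.33e-04, Benjamini-Hochberg). Ordered by count, not per length, it moved from rank 3544, 5236 and 5841 among the 15251 genes to rank 17, 9 and 19 in the day 9 libraries. Neu4, a sialidase, went from 0.442, 0.376 and 0.423 CPM to 29.0, 44.4 and 32.3 CPM (6.39 ± 0.30). Sox10, the transcription factor that marks the lineage, rose from a mean of 12.4 to 175 CPM (3.82), and Sox8, its relative, from 293, 240 and 280 CPM to 881, 901 and 851 CPM (1.70 ± 0.17). Pdgfra, the PDGF receptor of precursors, went from 64.7, 93.2 and 56.6 CPM to 147, 142 and 162 CPM (1.07 ± 0.23). The 4 falls were of the lineage factors Olig1 (-1.09) and Olig2 (-0.70), the xylosyltransferase Xylt1 (-1.49) and the sulfatase Sulf2 (-0.68), named after their values were seen. Pdgfra lost its call without day 5 replicate 3, day 9 replicate 1 or day 9 replicate 3 (edgeR adjusted p up to 0.0703, Benjamini-Hochberg). The number of falls was 1 without day 9 replicate 2 and 1 on within-library ranks, with 8 and 10 rises.

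Astrocyte genes rose in the same interval. Of 28 tested members, 19 rose and 0 fell, with a median log2 fold change of 1.54. Gfap (chromosome 11, 102887336 to 102900912, reverse strand), the intermediate filament of astrocytes, went from 9.37, 3.76 and 3.77 CPM to 440, 617 and 550 CPM (6.57 ± 0.49, edgeR adjusted p = 3.88e-04, Benjamini-Hochberg). Aqp4, the water channel of astrocyte endfeet, went from 4.18, 11.01 and 4.42 CPM to 95.5, 128 and 101 CPM (4.05 ± 0.46). Gja1, the gap junction protein connexin 43, went from 46.6, 79.8 and 49.5 CPM to 546, 752 and 645 CPM (3.47 ± 0.29). Apoe, the lipid carrier secreted by astrocytes, went from 205, 106 and 168 CPM to 3119, 4002 and 3267 CPM (4.44 ± 0.32). Ttyh1, a membrane protein of glia, went from 50.7, 43.4 and 42.9 CPM to 782, 1030 and 926 CPM (4.32 ± 0.21), and Ntsr2, a neurotensin receptor, rose 8.84-fold. All day 9 libraries lay above all day 5 libraries in each of these genes.

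Not every astrocyte gene moved: Aldh1l1, Slc1a3, Sox9, Nfia, Nfib, Mlc1, Slc7a10, Hepacam and Slc4a4 were not called, with values from -0.94 to 1.48. WT cells showed 14 rises and 0 falls over the same 28 genes, with a median of 0.81. The cKO rise was the larger in 10 of them by the test of the difference. For Gfap the WT change was 1.95 and the difference 4.77 (edgeR adjusted p = 3.62e-04, Benjamini-Hochberg), and for Gja1 0.91 and 2.71.

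The genes that report on FGF and ERK signalling fell. Of 24 tested feedback and immediate early genes, 0 rose and 17 fell, with a median log2 fold change of -1.66. Dusp6 (chromosome 10, 99263231 to 99267489, forward strand), the phosphatase that switches off ERK, went from 306, 277 and 313 CPM to 6.87, 4.61 and 4.93 CPM (-5.79 ± 0.24, edgeR adjusted p = 2.04e-04, Benjamini-Hochberg). Spry4 and Spry1, inhibitors upstream of ERK, fell from 269, 338 and 328 to 11.8, 7.65 and 7.84 CPM (-5.11 ± 0.26) and from 212, 175 and 215 to 8.84, 9.50 and 7.62 CPM (-4.53 ± 0.20). Etv5, an ETS transcription factor induced by FGF, went from 749, 520 and 719 CPM to 26.0, 20.7 and 23.8 CPM (-4.82 ± 0.24). In these 4 genes every day 9 library lay more than 10-fold below every day 5 library.

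Among the 12 Dusp, Spry, Spred, Il17rd and Etv genes of that list 9 fell, with Dusp4 (-4.72) and Etv4 (-4.53) beside the 4 above, while Spred1 (-0.62), Il17rd (0.05) and Etv1 (0.30) were not called. Among the other 12, mostly immediate early genes, which are also induced by stress and by handling, 8 fell: Ier3 (-3.80), Egr3 (-2.78), Ier2 (-1.82), Junb (-1.49), Egr1 (-1.49), Jun (-0.79), Phlda1 (-0.75) and Myc (-0.52). Fos (-0.27), Fosb (-0.65), Fosl1 (-0.44) and Egr2 (-1.02) were not called. WT cells showed 1 rise and 10 falls with a median of -0.37. The cKO change lay below that of WT for 12 of the 24 by the test of the difference, against 4.85% of all genes. They include Il17rd, which was not called in cKO and changed by 2.03 in WT, so not all 12 are larger falls. Dusp6 fell by 0.88 in WT, and its difference was -4.77 (95% interval -5.41 to -4.13).

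Growth factor receptor genes moved both ways, where 10.6% of all genes rose and 19.4% fell. Of 17 tested members, 8 rose and 1 fell, with a median log2 fold change of 0.78. Fgfr1, the main FGF receptor of progenitors, was the one that fell, from a mean of 288 to 120 CPM (-1.26), and its fall exceeded that of WT (difference -1.10, edgeR adjusted p = 0.0346, Benjamini-Hochberg). Egfr, the EGF receptor, was at 159, 428 and 217 CPM and then 157, 136 and 184 CPM, with overlapping groups (-0.76 ± 0.37, edgeR adjusted p = 0.174, Benjamini-Hochberg). Ntrk2, the BDNF receptor, went from 402, 504 and 510 CPM to 1498, 2111 and 1843 CPM (1.95 ± 0.22). Il6st, the shared receptor chain for LIF and CNTF, went from 66.9, 98.9 and 75.3 CPM to 193, 193 and 183 CPM (1.24 ± 0.19). Fgfr3, an FGF receptor found in astrocytes, went from 145, 123 and 136 CPM to 211, 241 and 243 CPM (0.78 ± 0.16). The Fgfr3 call ended without day 5 replicate 3 or any 1 of the day 9 libraries (edgeR adjusted p up to 0.113, Benjamini-Hochberg).

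Cell division genes fell almost without exception. All 44 tested genes of DNA replication and S phase fell, with a median log2 fold change of -3.27, and 50 of 52 genes of G2 and mitosis fell, with a median of -4.17. In each of these 96 genes every day 9 library lay below every day 5 library, against 28.2% of all genes. Mcm5, a subunit of the replicative helicase, went from 495, 220 and 333 CPM to 11.8, 12.8 and 16.6 CPM (-4.67 ± 0.37, edgeR adjusted p = 4.39e-04, Benjamini-Hochberg). Rrm2, the regulated subunit of ribonucleotide reductase, went from 386, 422 and 472 CPM to 16.7, 21.2 and 21.7 CPM (-4.42 ± 0.21). Uhrf1, which guides maintenance DNA methylation at replication forks, fell 18.7-fold, and Mcm10, an origin firing factor, 15.9-fold.

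Ccnb1 (chromosome 13, 100778650 to 100786570, reverse strand), the cyclin of mitotic entry, went from 264, 273 and 293 CPM to 11.1, 13.0 and 14.8 CPM (log2 fold change -4.41 ± 0.19, edgeR adjusted p = 2.04e-04, Benjamini-Hochberg). Knstrn, a spindle and kinetochore adaptor, went from 136, 152 and 158 CPM to 8.59, 8.06 and 8.07 CPM (-4.17 ± 0.19). Racgap1, a component of the cytokinesis machinery, went from 380, 314 and 403 CPM to 17.7, 23.5 and 21.1 CPM (-4.13 ± 0.21), and Nek2, a centrosome kinase, fell from a mean of 56.5 to 3.59 CPM (-3.96). Top2a, the topoisomerase of chromosome condensation, went from 243, 807 and 292 CPM to 18.2, 18.4 and 15.9 CPM (-4.68 ± 0.53). Mki67, a widely used marker of dividing cells, went from 122, 645 and 82.3 CPM to 11.8, 2.10 and 22.0 CPM (-4.62 ± 1.17), with day 5 replicate 2 far above the others. Its call (edgeR adjusted p = 0.0265, Benjamini-Hochberg) ended when any 1 library other than day 5 replicate 3 was left out (up to 0.103). The pair that was not called, Cenpe (-4.40) and Smc4 (-2.74), had large standard errors of 1.37 and 1.03.

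Cell division genes also fell in WT cells, by less. There 39 of 44 replication genes and 32 of 52 mitotic genes fell, with medians of -1.14 and -0.94. The fall was larger in cKO for 34 and 35 of them by the test of the difference. Ccnb1 did not pass in WT (-0.41, edgeR adjusted p = 0.124, Benjamini-Hochberg), and its difference was -3.86 (95% interval -4.38 to -3.33). For Mki67 the WT fall of 4.40 was about as large as that in cKO, and the difference of -0.10 had an interval from -3.03 to 2.83. In WT, too, 1 day 5 library held much more Mki67 than the others: 648, 179 and 109 CPM in replicates 1 to 3, with the 12 libraries scaled together.

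Promoters of the 4 mitotic genes with the smallest p-values are shown because many mitotic genes are known to be controlled together through CCAAT boxes, bound by the factor NF-Y, and through the cell cycle homology element TTTGAA. Each runs over the 250 bases before the RefSeq transcription start (GRCm38.p6), 5′ to 3′ on the gene's strand, and capitals mark a match to CCAAT or TTTGAA on either strand (ATTGG is CCAAT on the other strand). The windows are chr13:100786487-100786736 (reverse strand) for Ccnb1, chr2:118813753-118814002 (forward) for Knstrn, chr15:99651657-99651906 (reverse) for Racgap1 and chr1:191821223-191821472 (forward) for Nek2.
Ccnb1: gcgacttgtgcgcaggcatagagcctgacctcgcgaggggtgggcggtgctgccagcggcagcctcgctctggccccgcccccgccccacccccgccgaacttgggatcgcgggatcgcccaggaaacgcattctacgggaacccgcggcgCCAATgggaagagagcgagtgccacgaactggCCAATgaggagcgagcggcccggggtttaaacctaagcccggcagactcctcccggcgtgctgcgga
Knstrn: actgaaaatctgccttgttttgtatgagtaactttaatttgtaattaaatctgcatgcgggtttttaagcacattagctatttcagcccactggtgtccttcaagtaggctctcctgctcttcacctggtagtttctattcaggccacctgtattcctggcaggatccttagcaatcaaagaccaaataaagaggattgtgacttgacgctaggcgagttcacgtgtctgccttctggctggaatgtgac
Racgap1: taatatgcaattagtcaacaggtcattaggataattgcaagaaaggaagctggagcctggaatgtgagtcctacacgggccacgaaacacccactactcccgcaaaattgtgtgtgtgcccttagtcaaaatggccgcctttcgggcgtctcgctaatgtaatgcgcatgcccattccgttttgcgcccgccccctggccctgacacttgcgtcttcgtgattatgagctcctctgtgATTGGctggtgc
Nek2: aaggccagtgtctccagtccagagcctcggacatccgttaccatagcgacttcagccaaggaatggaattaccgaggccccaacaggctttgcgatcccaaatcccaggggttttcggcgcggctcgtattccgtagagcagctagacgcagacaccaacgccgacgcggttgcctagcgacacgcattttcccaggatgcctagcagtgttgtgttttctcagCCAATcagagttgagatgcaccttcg

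Ccnb1 holds 2 matches to CCAAT, 67 and 99 bases before the start, Racgap1 holds 1 at 12 bases and Nek2 holds 1 at 26 bases. The Ccnb1 gene span given above begins further upstream than the RefSeq start, so the match at 67 bases lies inside that span. Knstrn holds no match, and none of the 4 windows holds TTTGAA. Of the 43 mitotic genes that fell and have a listed promoter, 32 (74.4%) hold CCAAT and 15 (34.9%) hold TTTGAA. Among all tested genes with a promoter (10775) the shares are 36.5% and 10.1%, and among all 27025 listed promoters they are 34.5% and 16.3%. Replication genes that fell hold them in 62.9% and 14.3%, and oligodendrocyte and astrocyte genes that rose in 22.6% and 6.45%. These are shares of windows of the same length, with the first listed start per gene, and a match is not evidence of a bound site.

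The regulators of the G1 phase moved apart. Of 21 tested G1 cyclins, CDK inhibitors and retinoblastoma family genes, 3 rose and 11 fell, with a median log2 fold change of -1.001. Ccnd1, the D-type cyclin that growth factors induce, went from 2642, 2234 and 2816 CPM to 65.3, 69.4 and 58.9 CPM (-5.31 ± 0.22, edgeR adjusted p = 2.04e-04, Benjamini-Hochberg). In the day 5 libraries it was the gene at rank 30, 23 and 22 by count, and at day 9 it was at rank 3225, 3258 and 3534. Ccnd2 fell from a mean of 1387 to 91.3 CPM (-3.93). WT cells also fell in Ccnd1, by 1.65, and the difference was -3.51 (edgeR adjusted p = 4.81e-05, Benjamini-Hochberg).

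The CDK inhibitors did not move as a set, though more of them fell than rose. Cdkn1c, which encodes the inhibitor p57, went from 5.47, 3.998 and 3.69 CPM to 77.3, 87.8 and 71.0 CPM (4.16 ± 0.26, edgeR adjusted p = 2.38e-04, Benjamini-Hochberg). Cdkn1a, which encodes p21, a p53 target, went from 770, 359 and 646 CPM to 44.4, 52.0 and 34.3 CPM (-3.76 ± 0.35). Cdkn2c, which encodes p18, fell 3.80-fold, and Cdkn2a (-1.805) and Cdkn2d (-1.53) fell as well, while Cdkn2b (-0.18) was not called. Cdkn1b, which encodes p27, was higher in all 3 day 9 libraries (89.6, 107 and 92.3 CPM) than at day 5 (49.5, 76.4 and 59.8 CPM) but was not called (0.64 ± 0.22, edgeR adjusted p = 0.0659, Benjamini-Hochberg). Rises in the list numbered 5 without day 5 replicate 2 and 1 without day 9 replicate 2. The other 2 that rose were the retinoblastoma relative Rbl2 (0.93) and the antiproliferative factor Btg2.

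Targets of p53 fell more often than they rose. Of 30 tested members 2 rose, Sesn1 (1.32) and Xpc (0.92), and 15 fell, with a median log2 fold change of -1.32. Gtse1, a mitotic regulator that limits p53, went from 142, 99.4 and 135 CPM to 3.44, 3.74 and 4.48 CPM (-5.01 ± 0.26, edgeR adjusted p = 2.15e-04, Benjamini-Hochberg). Plk2, a p53-induced kinase, went from 239.7, 238.3 and 281.3 CPM to 29.7, 23.8 and 24.0 CPM (-3.30 ± 0.19). Among 22 tested apoptosis genes of the BCL2 and caspase families 1 rose and 7 fell, where 10.6% and 19.4% of all genes did. The rise was of the BH3-only gene Bmf (2.76). Bax, a pore-forming effector of mitochondrial apoptosis, went from 614, 222 and 421 CPM to 62.9, 94.8 and 66.8 CPM (-2.48 ± 0.40), and Bok, its relative, fell 4.99-fold. In WT 3 p53 targets rose and 13 fell. The cKO fall was larger for 4 of 30 p53 targets and for 0 of 22 apoptosis genes by edgeR's test of the difference, where 3 apoptosis genes had an unadjusted p under 0.05. Without day 9 replicate 2, 2 apoptosis genes in all fell.

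Progenitor identity genes moved both ways, where 10.6% of all genes rose and 19.4% fell. Of 23 tested members 6 rose and 5 fell. The median of -0.01 changes sign with scaling (0.22 with upper quartile scaling). Sox2, the factor whose promoter drives the Cre, went from 175, 271 and 232 CPM to 392, 467 and 396 CPM (0.89 ± 0.21, edgeR adjusted p = 0.0222, Benjamini-Hochberg). Pax6 went from 15.4, 23.4 and 18.4 CPM to 37.3, 46.7 and 46.2 CPM (1.19 ± 0.23), and Msi1, an RNA-binding protein of stem cells, from 63.0, 46.9 and 49.3 CPM to 93.5, 90.8 and 108 CPM (0.87 ± 0.20). Sox1 (0.69), Nr2e1 (0.72) and the Notch target Hes5 (2.15) were the other members that rose. All day 9 libraries lay above all day 5 libraries in Sox2, Pax6, Msi1 and Hes5.

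Nes, the intermediate filament nestin, went from 569, 1350 and 857 CPM to 129, 106 and 135 CPM (-2.91 ± 0.35, edgeR adjusted p = 0.00184, Benjamini-Hochberg). Vim (vimentin, -2.29), Tnc (tenascin C, -2.17), Hmga2 (a chromatin protein of young stem cells, -3.28) and Hes1 (-3.73) fell with it. Fabp7, the fatty acid binding protein of radial glia, was at 776, 1148 and 836 CPM and then 701, 833 and 648 CPM, with overlapping groups and no call (-0.34 ± 0.22). In WT 11 of the 23 genes rose and 3 fell. By the test of the difference, the cKO change lay below that of WT in 5 members. Nes changed by -0.25 in WT (not called) with a difference of -2.51 (edgeR adjusted p = 0.00313, Benjamini-Hochberg), whereas Sox2 rose by 1.14 in WT with a difference of -0.10 (95% interval -0.76 to 0.56). Calls for Sox2 ended without any 1 library other than day 5 replicate 2, for Msi1 without day 5 replicate 3 or any day 9 library, and for Pax6 without day 5 replicate 3 or day 9 replicate 3 (edgeR adjusted p up to 0.157, Benjamini-Hochberg). Rises numbered 2 rather than 6 without day 9 replicate 2, and falls 8 rather than 5 without day 5 replicate 2.

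Neuronal differentiation genes rose in part. Of 23 tested members 11 rose and 2 fell, with a median log2 fold change of 0.76. Neurog2, a proneural factor, went from 0.0402, 0 and 0.038 CPM to 3.93, 5.88 and 5.38 CPM (7.21 ± 0.68, edgeR adjusted p = 7.37e-04, Benjamini-Hochberg), and rose in WT too (5.32). Dcx, a microtubule protein of migrating young neurons, went from 6.11, 18.8 and 5.81 CPM to 88.4, 75.2 and 64.5 CPM (2.90 ± 0.52). Tubb3, a neuronal tubulin, went from 49.8, 18.4 and 27.0 CPM to 89.4, 95.6 and 95.7 CPM (1.56 ± 0.37). Mapt, the axonal protein tau, went from 141, 136 and 151 CPM to 440, 487 and 421 CPM (1.66 ± 0.16), and Ina, a neuronal filament, rose 2.79-fold. All day 9 libraries lay above all day 5 libraries in these 5 genes.

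Without day 9 replicate 2 the neuronal list had 7 rises and 1 fall. Gap43, the growth cone protein, fell from a mean of 264 to 49.5 CPM (-2.41), as did Stmn4 (-1.26), and Map2, Elavl2, Elavl4, Sox11, Stmn3, Nefl and Nefm were not called. Of 33 tested synaptic genes 7 rose and 2 fell, where 10.6% and 19.4% of all genes did, with a median of 0.35. Without day 5 replicate 2 this list had 13 rises and 6 falls, and without day 9 replicate 2 it had 5 rises and 0 falls (edgeR; 8 genes at an unadjusted p under 0.05). Gabbr1, a GABA-B receptor subunit, went from 93.4, 65.1 and 76.4 CPM to 269, 271 and 275 CPM (1.79 ± 0.18), Syn2, a synaptic vesicle protein, rose 2.71-fold and Nlgn3, a synaptic adhesion protein also made by glia, 2.44-fold. The 2 falls were of Dlg4 (-1.15) and Grin2a (-4.41). Among 6 tested interneuron genes only Gad1, which makes GABA, rose, where 10.6% of all genes did. Gad1 went from 4.26, 10.5 and 9.15 CPM to 22.1, 19.5 and 20.8 CPM (1.38 ± 0.36, edgeR adjusted p = 0.0277, Benjamini-Hochberg). A further 5 of the 11 listed interneuron genes were too low to test. Dlx2 was at 0.603, 0.894 and 2.12 CPM and then 0.246, 0.370 and 1.79 CPM, with overlapping groups. In WT 4 neuronal genes rose and 2 fell, and the cKO change was the higher in 4 neuronal and 2 synaptic genes by the test of the difference. Calls ended for Tubb3 and Gad1 without day 5 replicate 3 or any day 9 library and for Nlgn3 without day 5 replicate 3, day 9 replicate 1 or day 9 replicate 3 (edgeR adjusted p up to 0.124, Benjamini-Hochberg).

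**Figure D2:**
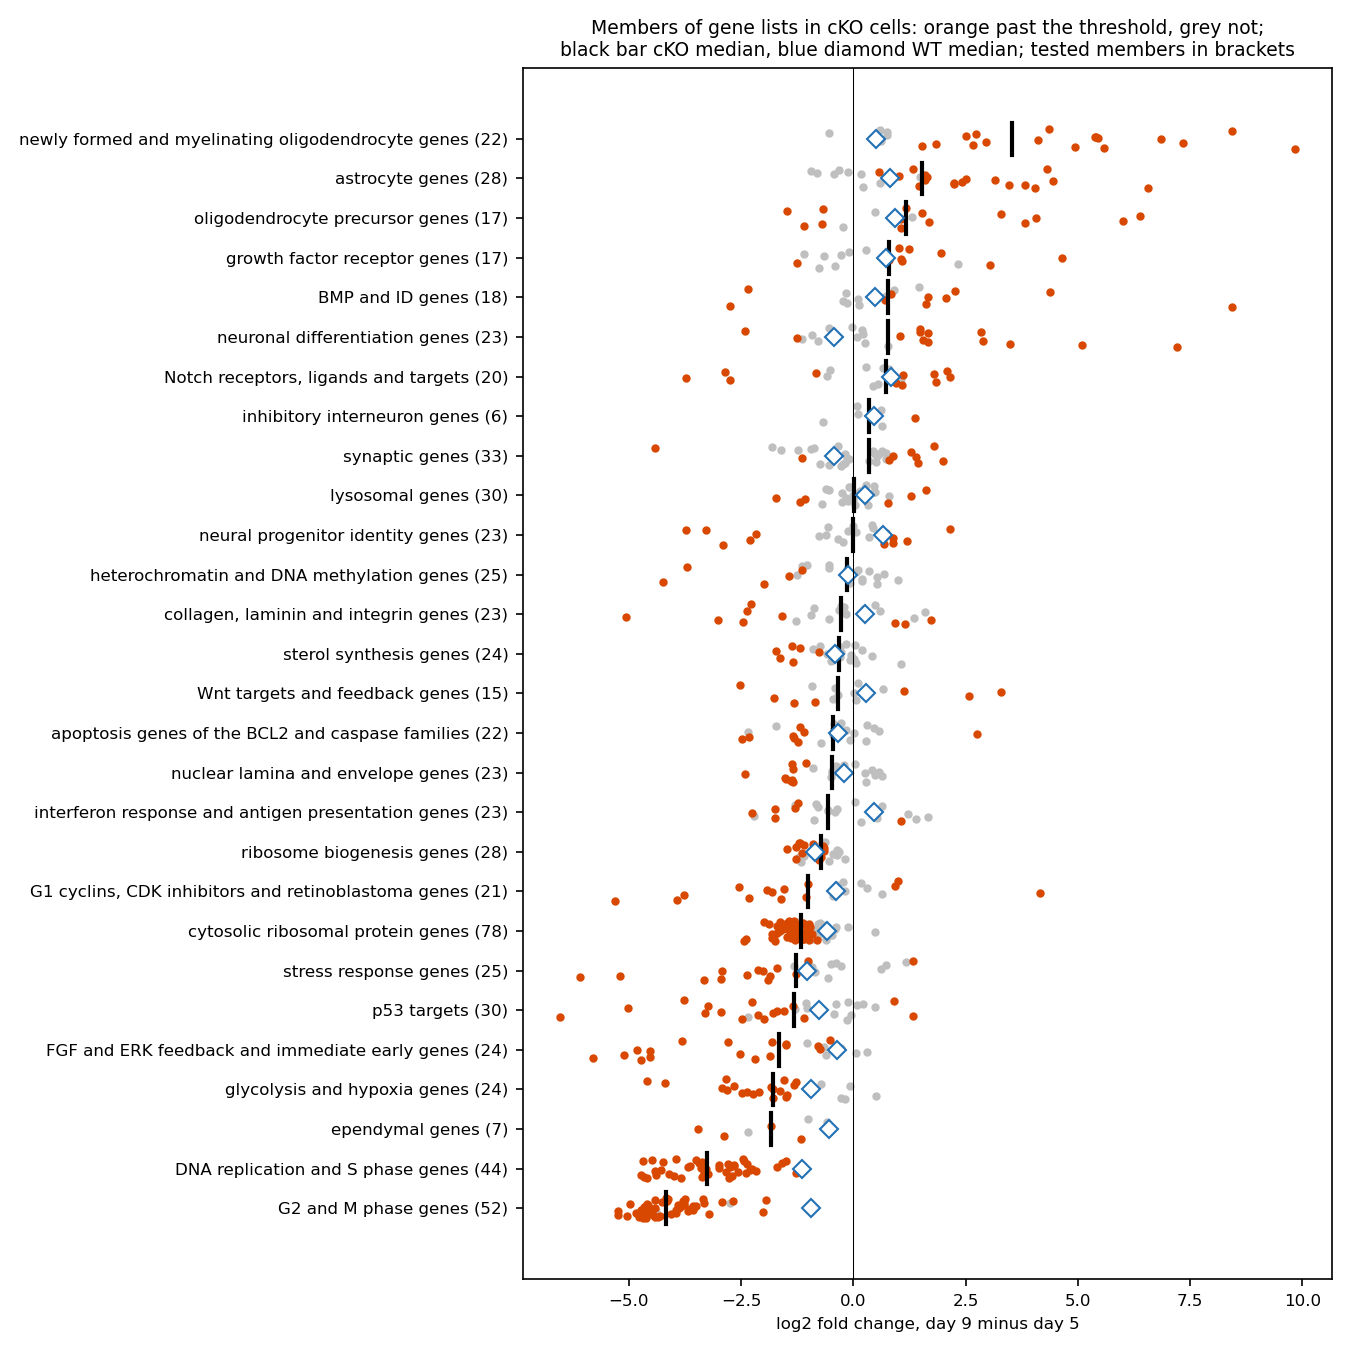
Log2 fold change from day 5 to day 9 in cKO for the tested members of each gene list with at least 5 tested members (orange points passed the threshold, grey did not), with the list's cKO median (black bar) and WT median (blue diamond). Oligodendrocyte genes lie at the top with a cKO median of 3.53 and mitotic genes at the bottom with -4.17, and the WT medians of these lists are 0.52 and -0.94.

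Genes of the Notch pathway, through which a ligand on one cell acts on a receptor of its neighbour, moved both ways. Of 20 tested members 7 rose and 4 fell, where 10.6% and 19.4% of all genes did, so falls were near that share. The median log2 fold change was 0.73. The target Hes5 went from 27.9, 11.9 and 16.6 CPM to 75.1, 96.0 and 78.4 CPM (2.15 ± 0.35, edgeR adjusted p = 0.00608, Benjamini-Hochberg), the target Hey1 rose 2.14-fold and the ligand Dll1 1.94-fold. The falls were of the target Hes1 (-3.73), the ligand Jag1 (-2.75), the glycosyltransferase Lfng (-2.86) and the feedback inhibitor Nrarp (-0.83). WT showed 11 rises and 0 falls, and the cKO change lay below that of WT in 4 members. The calls for Hey1 and Dll1 ended without day 5 replicate 3 or day 9 replicate 2, and that for Hey1 also without day 9 replicate 1 (edgeR adjusted p up to 0.0722, Benjamini-Hochberg); without day 9 replicate 2 the list had 2 rises.

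BMP and Wnt genes also moved both ways, where 10.6% of all genes rose and 19.4% fell. Of 18 tested BMP and ID genes 8 rose (5 without day 9 replicate 2) and 2 fell, the ligand Bmp7 (-2.74) and the pseudoreceptor Bambi (-2.34). Bmp4, a ligand that is also made by newly formed oligodendrocytes, went from 0, 0.047 and 0.038 CPM to 10.6, 12.6 and 13.0 CPM (8.43 ± 0.58, edgeR adjusted p = 3.07e-04, Benjamini-Hochberg). Id4, an inhibitor of helix-loop-helix factors, went from 2.89, 2.87 and 2.54 CPM to 50.8, 73.0 and 49.96 CPM (4.39 ± 0.26), and Smad7, a feedback inhibitor, rose 4.21-fold. Of 15 tested Wnt targets and feedback genes 3 rose: Dkk3 (3.287), Rnf43 (2.575) and Sfrp1 (1.118). The 4 that fell were Fzd1 (-2.52), Tcf7 (-1.75), Axin2 (-1.31) and Nkd1 (-0.84). Axin2, the general feedback target of Wnt signalling, went from 50.5, 51.9 and 57.3 CPM to 20.4, 18.8 and 25.3 CPM. It changed by 0.17 in WT (not called), and the difference was -1.33 (edgeR adjusted p = 0.00455, Benjamini-Hochberg).

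Glycolytic and hypoxia-inducible genes fell. Of 24 tested members 0 rose and 19 fell, with a median log2 fold change of -1.79. Ldha, lactate dehydrogenase, went from 1588, 1314 and 1896 CPM to 194, 246 and 193 CPM (-2.92 ± 0.23, edgeR adjusted p = 4.52e-04, Benjamini-Hochberg). Adm, the hypoxia-induced peptide adrenomedullin, went from 26.2, 28.8 and 42.1 CPM to 1.72, 1.89 and 1.57 CPM (-4.20 ± 0.30). Car9, a carbonic anhydrase induced by hypoxia, went from 4.86, 7.43 and 7.31 CPM to 0.246, 0.288 and 0.224 CPM (-4.59 ± 0.41). Hk1, Hk2, Pfkm, Pdk1 and Bnip3 were not called. In WT 16 of 24 fell with a median of -0.94, and the cKO fall was larger in 4 by the test of the difference.

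Stress response genes fell in both genotypes. Of 25 tested members 1 rose (Hspa1b, 1.33; 4 rose without day 5 replicate 2) and 14 fell in cKO, with a median of -1.27, and 1 rose and 13 fell in WT, with a median of -1.03. The difference was called for 0 of the 25 by edgeR's quasi-likelihood test, and 3 had an unadjusted p under 0.05. Chac1, a glutathione-degrading enzyme of the integrated stress response, went from 28.4, 13.5 and 20.1 CPM to 0.246, 0.741 and 0.448 CPM (-5.19 ± 0.48, edgeR adjusted p = 7.03e-04, Benjamini-Hochberg). Atf5, a transcription factor of that response, and Mthfd2, a mitochondrial folate enzyme it induces, fell 7.69-fold and 7.61-fold. For Mthfd2 the WT change was -2.24 and the difference -0.54 (95% interval -1.14 to 0.06).

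Genes of the translation machinery fell by smaller amounts. Of 78 tested cytosolic ribosomal protein genes 0 rose and 50 fell, with a median log2 fold change of -1.16, and of 28 ribosome biogenesis genes 0 rose and 13 fell, with a median of -0.73. Rpsa, a protein of the small subunit, went from 1747, 747 and 1245 CPM to 193, 319 and 178 CPM (-2.44 ± 0.39, edgeR adjusted p = 0.00577, Benjamini-Hochberg). Rps7 fell 5.20-fold and Rpl41 3.96-fold, and the nucleolar proteins Tcof1, Nop2 and Mybbp1a fell 2.31-fold, 2.44-fold and 1.87-fold. Calls ended for Rpl41 without day 9 replicate 1 or 3, for Tcof1 without day 5 replicate 3 or day 9 replicate 2, and for Nop2 and Mybbp1a without day 5 replicate 3 or any day 9 library (edgeR adjusted p up to 0.0961, Benjamini-Hochberg). Many ribosomal protein genes have near-identical pseudogenes, so their counts are uncertain. The counts moved strongly with library choice: 14 ribosomal protein genes fell without day 9 replicate 2, 76 without day 5 replicate 2, and 25 on within-library ranks, and 0 of 28 biogenesis genes fell without day 9 replicate 2 (edgeR's quasi-likelihood test; 13 at an unadjusted p under 0.05). The summed level of the ribosomal protein genes, like all summed levels here in CPM without scaling factors, was 67349, 35510 and 57584 CPM at day 5 and 24554, 33941 and 24600 CPM at day 9, so the lowest day 5 library lay close to the highest day 9 library. WT showed 28 and 17 falls and 0 rises, and edgeR called 0 differences in either list, with 1 gene at an unadjusted p under 0.05 in each.

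Of 24 tested sterol synthesis genes 0 rose and 6 fell, where 19.4% of all genes fell, with a median of -0.32. Sterol falls numbered 12 without day 5 replicate 2 and 3 without day 9 replicate 2. The enzymes Ebp and Fdps fell 3.31-fold and 3.10-fold. The Fdps call ended without day 5 replicate 3, day 9 replicate 1 or day 9 replicate 3 (edgeR adjusted p up to 0.0731, Benjamini-Hochberg). Of 30 tested lysosomal genes 3 rose and 3 fell, where 10.6% and 19.4% of all genes did. Lysosomal falls numbered 9 without day 5 replicate 2, and the list had 2 rises and 1 fall without day 9 replicate 2. Scarb2, a lysosomal membrane receptor, went from 112, 129 and 129 CPM to 373, 419 and 340 CPM (1.62 ± 0.17), Npc1, the lysosomal cholesterol transporter, rose 2.44-fold and the protease Ctsl 1.70-fold. The Ctsl call ended without any 1 library other than day 5 replicate 2 (edgeR adjusted p up to 0.183, Benjamini-Hochberg). The falls were of Ctsz (-1.20), Gla (-1.08) and Glb1 (-1.72), the last of which encodes the beta-galactosidase used to stain senescent cells.

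Of 23 tested nuclear lamina and envelope genes 0 rose (3 without day 5 replicate 2) and 9 fell, where 10.6% and 19.4% of all genes did. Their median log2 fold change was -0.48. Lmnb2, the other B-type lamin gene, went from 101, 59.0 and 84.9 CPM to 29.2, 33.5 and 33.4 CPM (-1.35 ± 0.25, edgeR adjusted p = 0.0096, Benjamini-Hochberg). Lmna, which encodes lamins A and C, went from 63.9, 29.6 and 45.1 CPM to 16.5, 20.9 and 15.01 CPM (-1.40 ± 0.32). Lbr, the lamin B receptor, went from 46.0, 75.1 and 59.8 CPM to 26.3, 21.4 and 23.1 CPM (-1.36 ± 0.24). Banf1, a protein that bridges chromatin and the envelope, went from 494, 225 and 398 CPM to 58.2, 81.9 and 68.8 CPM (-2.42 ± 0.32), the pore protein Nup210 fell 2.55-fold and Tmem43 2.06-fold. All day 9 libraries lay below all day 5 libraries in these genes.

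WT cells showed 1 rise and 6 falls in the envelope list, and edgeR called a difference between the genotypes for 0 of 23 members, with 5 at an unadjusted p under 0.05. The Lmna change was -1.47 in WT, with a difference of 0.23 (95% interval -0.74 to 1.19), and that of Lmnb2 -0.83, with a difference of -0.37 (-1.02 to 0.28). For Lbr the WT change was -0.20 and the difference -1.01 (-1.82 to -0.19, edgeR adjusted p = 0.163, Benjamini-Hochberg). Calls ended for Lmna without day 5 replicate 3 or any day 9 library and on ranks, for Lmnb2 without day 5 replicate 3, day 9 replicate 1 or day 9 replicate 2, for Lbr without day 9 replicate 3 and for Tmem43 without day 5 replicate 3 (edgeR adjusted p up to 0.0956, Benjamini-Hochberg).

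Of 25 tested heterochromatin genes 0 rose and 5 fell, where 10.6% of all genes rose and 19.4% fell: Uhrf1, Hells (a chromatin remodeller, -3.71), Dnmt1, Suv39h1 and Trim28 (-1.15). Dnmt1, the maintenance DNA methyltransferase, went from 389, 434 and 383 CPM to 98.9, 101 and 105 CPM (-1.99 ± 0.16, edgeR adjusted p = 4.34e-04, Benjamini-Hochberg), with a WT change of -0.49 and a difference of -1.35. Suv39h1, an H3K9 methyltransferase, fell 2.68-fold, a call that ended without day 9 replicate 2 (edgeR adjusted p = 0.0532, Benjamini-Hochberg). Without day 5 replicate 2 the list had 7 rises and 8 falls, and without day 9 replicate 2 it had 2 falls. The list median of -0.15 turns to 0.07 with upper quartile scaling.

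Among matrix genes 3 of 23 tested rose and 6 fell, where 10.6% and 19.4% of all genes did. The rises were of the basement membrane collagens Col4a1 (1.15) and Col4a2 (0.93) and of Col11a1 (1.73). Col5a1, a fibrillar collagen, went from 23.0, 21.8 and 26.4 CPM to 4.17, 3.62 and 5.38 CPM (-2.45 ± 0.25, edgeR adjusted p = 9.51e-04, Benjamini-Hochberg). Itga5, the fibronectin receptor subunit, went from 47.5, 27.8 and 44.9 CPM to 6.63, 7.08 and 9.63 CPM (-2.37 ± 0.30), and its ligand Fn1 fell (-2.28), as did Lama4 (-5.05), Col18a1 (-3.01) and Lama5 (-1.60). Matrix rises numbered 6 without day 5 replicate 2 and 1 without day 9 replicate 2. The cKO change lay below that of WT in 4 members. Of 23 tested interferon response and antigen presentation genes 1 rose (Stat2, 1.07) and 5 fell, a number of falls that was 10 without day 5 replicate 2 and 2 without day 9 replicate 2, where 19.4% of all genes fell. H2-K1, a class I antigen-presenting molecule, went from 74.1, 46.5 and 68.2 CPM to 17.92, 18.97 and 19.04 CPM (-1.75 ± 0.24), and the peptide transporter Tap1 and the immunoproteasome subunit Psmb10 fell 2.46-fold and 2.34-fold. Their calls ended on ranks, without day 5 replicate 3 and without any 1 of the day 9 libraries (edgeR adjusted p up to 0.117, Benjamini-Hochberg), and that of Psmb10 also without day 5 replicate 1.

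Markers of other cell types were low. Of 12 microglia and macrophage genes 3 could be tested, with summed levels of 5.36 to 5.60 CPM at day 5 and 2.85 to 5.34 CPM at day 9, and Itgam fell. Endothelial genes, of which 2 of 10 were tested, summed to 4.84 to 7.28 and 5.72 to 7.28 CPM, and mural and fibroblast genes, of which 3 of 12 were tested, to 5.18 to 6.42 and 5.46 to 8.01 CPM. Ependymal genes summed to 30.0 to 54.3 CPM at day 5 and 15.3 to 20.6 CPM at day 9, and 4 of 7 tested fell, or 1 without day 9 replicate 2. Foxj1, the factor that drives motile cilia, went from 28.5, 15.1 and 20.8 CPM to 8.59, 9.59 and 10.8 CPM (-1.16 ± 0.29, edgeR adjusted p = 0.0247, Benjamini-Hochberg), a call that ended without any 1 library other than day 5 replicate 2 and on ranks.

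The labelled cell type was checked against its defining genes. At day 5 the cKO libraries had Sox2 at 175 to 271 CPM, Nes at 569 to 1350 CPM and the mitotic genes at a summed 6195 to 7664 CPM. The astrocyte genes already summed to 6426 to 7289 CPM at day 5, and the myelinating list to 466 to 648 CPM. The progenitor identity list summed to 6133 to 8386 CPM at day 5 and 3633 to 4176 CPM at day 9. At day 9 Sox2 was at 392 to 467 CPM, Nes at 106 to 135 CPM, the mitotic genes at a summed 448 to 574 CPM, the astrocyte genes at 20555 to 26397 CPM and the myelinating list at 4080 to 5801 CPM. The labels call the cells of both days neural progenitors. At day 9 Sox2 was present in all 3 libraries, beside lower levels of Nes and of mitotic genes than at day 5.

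Set beside WT over the same days, 2031 genes were called in the same direction in both genotypes (861 rose, 1170 fell) of 14198 tested in both. That is 45.7% of the cKO calls and 57.6% of the WT calls among those genes. The change itself differed between genotypes for 1149 of 15837 genes (7.26%; 381 with a higher and 768 with a lower cKO change). Of the 1615 genes that rose in cKO, 350 rose by more than in WT, and of the 2966 that fell, 703 fell by more. Genes called in the same direction in both, with a difference at an unadjusted p above 0.05, include Rassf10, Col6a3 and Ahnak (log2 fold changes of 6.42, 6.18 and 4.49 in cKO and 4.33, 4.82 and 3.57 in WT) and, among falls, Ddias (-5.22 and -3.89) and Sema3c (-5.04 and -2.90). Their differences had wide intervals, from -0.31 to 3.38 for Col6a3 and from -3.67 to 1.29 for Ddias, so unequal changes are within them.

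**Figure D3:**
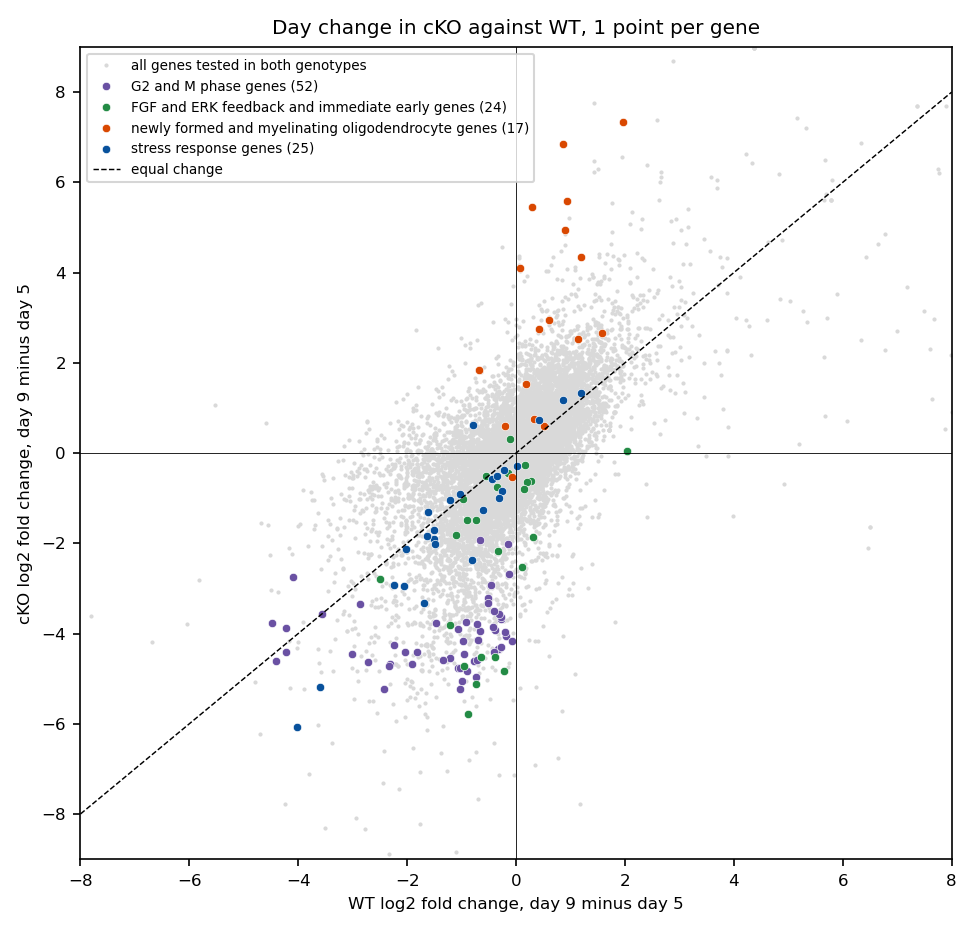
Log2 fold change from day 5 to day 9 in cKO (vertical) against WT (horizontal) for 14096 genes tested in both genotypes (grey; a further 102 lie outside the axes), with 4 lists in colour and the line of equal change dashed. Mitotic and FGF and ERK feedback genes lie mostly below the line and newly formed and myelinating oligodendrocyte genes mostly above it, while stress response genes lie nearer the line.

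Because structural RNA separates day 9 replicates 1 and 3 from replicate 2, the day change was also taken within libraries of low and of high share. These are differences of log2(CPM + 0.5) with no test. The 3 libraries below 1% were day 9 replicate 2 and day 5 replicates 1 and 3, and the 3 above 10% were day 9 replicates 1 and 3 and day 5 replicate 2. The high libraries are not matched: the share was 13.9% in day 5 replicate 2 and 69.2% and 68.0% in day 9 replicates 1 and 3. Share and day therefore still run together among them. The myelinating list had medians of 2.90 and 3.35 in the low and the high libraries, the astrocyte list 1.67 and 1.46, the FGF and ERK list -1.74 and -1.51, the replication list -3.03 and -3.08 and the mitotic list -3.73 and -4.11. The envelope list was at -0.40 and -0.88, the heterochromatin list at -0.02 and -0.62, the neuronal list at 0.97 and 0.39, and the synaptic and progenitor lists had opposite signs (0.33 and -0.08, 0.14 and -0.33). With a term in the fit for a share above or below 10%, 2492 genes rose (16.3%) and 3443 fell (22.6%). Of the 4581 calls 4528 were kept. The term does not separate 13.9% from 69.2%, so it is no adjustment for the share itself. With that term 18 myelinating, 20 astrocyte, 0 FGF and ERK, 0 replication and 0 mitotic genes rose and 0, 1, 17, 44 and 52 fell (edgeR's quasi-likelihood test).

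**Figure D4:**
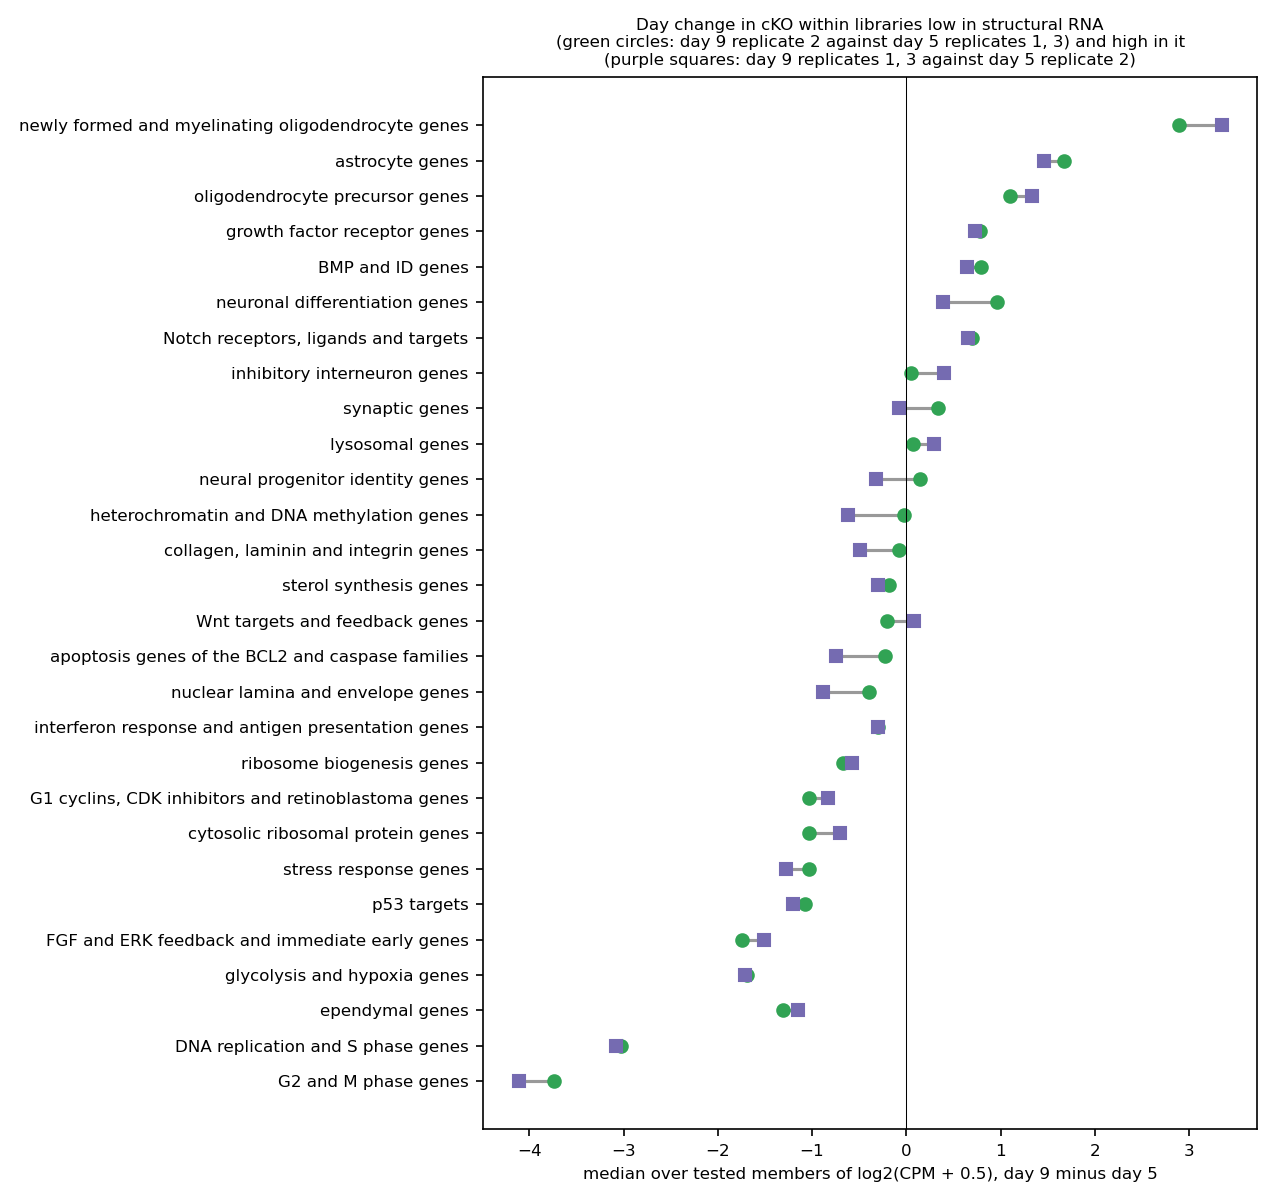
Median over tested list members of the difference in log2(CPM + 0.5), day 9 minus day 5, within the cKO libraries below 1% (green circles) and above 10% (purple squares) structural RNA, for lists with at least 5 tested members. The myelinating, astrocyte, FGF and ERK, replication and mitotic lists keep their sign in both, as does the glycolysis and hypoxia list (-1.69 and -1.71), whereas lists near 0 such as the synaptic and progenitor identity genes change sign.

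Ranks within each library gave 1789 rises (11.7%) and 1985 falls (13%) among the 15251 genes, by limma on normal scores of the ranks, and 3186 of the 4581 calls were kept. On ranks 17 myelinating and 20 astrocyte genes rose and 0 fell, and 14 FGF and ERK, 43 replication and 48 mitotic genes fell and 0 rose. Etv5 moved from rank 185, 228 and 166 by count to rank 6495, 7269 and 6802, and Apoe from 1153, 2329 and 1351 to 18, 8 and 17. The change also moved with the exonic length of genes. In 5 bins of equal gene number from the shortest to the longest genes, the median log2 fold change was -0.20, -0.24, -0.11, -0.04 and 0.12 in all 6 libraries. It ran from -0.18 to 0.39 within the libraries low in structural RNA and from -0.10 to -0.24 within those high in it, and in WT from -0.16 to 0.04. The part of gene length in the results was not tested.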

How the data were processed

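RNA from 12 libraries of mouse neural progenitors was analysed, 6 of them cKO. Per the file headers and the submitters' processing notes, the deposited estimated counts per gene and the deposited TPM values came from RSEM with Bowtie2 alignment to mm10. For strand use, annotation and trimming, the sources used here give nothing. The labels' replicate numbers name libraries only. Expected counts were rounded, symbols found once in both tables were joined (41592, of which 41590 were used, without Gm42418 and Lars2), and 0 mitochondrially encoded genes were among them.

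Day 9 was compared with day 5 with edgeR 4.0.16 (R 4.3.3) in the 6 cKO libraries: filterByExpr, TMM, robust quasi-likelihood test, Benjamini-Hochberg threshold 0.05. WT was fitted alike, and the cKO minus WT difference of day changes on 12 libraries, with 95% intervals. TPM, DESeq2 1.42.0, limma 3.58.1, rank, scaling, filter and leave-one-out alternatives are in the closing section. On simulated data with known changes the cKO fit on 15251 genes recovered 2.1%, 44.4%, 78.7% and 80.4% of 2-, 4-, 8- and 16-fold changes. The fit of the difference on 15837 genes recovered 0%, 32.7%, 61.2% and 69.4% of such changes. A difference that was not called is therefore no sign of equal changes.

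The members and the 31 gene lists were chosen with earlier results of these data known. Genes given with values in every library are preset anchors, or up to 3 called members per list with the smallest adjusted p. The others are the 10 largest changes per direction and the largest shared and differing changes. These were taken from genes with at least 5 CPM in the higher group and groups of libraries that do not overlap. Other members named with 1 value were chosen after their values were seen. Promoters came from a RefSeq table for GRCm38.p6. A few genes that the rule names are not reported here.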

Additional observations from a re-analysis of the deposited data

Results flagged for a closer look

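The day change differed between cKO and WT for 1149 genes by the edgeR test of the difference on 12 libraries (Benjamini-Hochberg adjusted p under 0.05). Among the genes with the largest differences that were also called in cKO, oligodendrocyte and signalling genes rose by more in cKO: Enpp6 by a further 10.19 on the log2 scale, Gng4, a G protein gamma subunit, by 7.67, Bmp4 by 7.31, the kinase gene Cdk18 by 6.56 and Fa2h by 5.53. In the other direction the log2 difference was -9.33 for Raet1d, -7.90 for Tmem37, -5.80 for Cd93, -5.31 for Ankrd34c, -5.19 for Rab26 and -5.12 for Tmem173. Raet1d and Tmem37 had no count in any cKO day 9 library, so their fitted values depend on the prior count and are no bound.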

How the results depend on the processing

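The number of genes changed between the days in cKO (4581) ranged from 1934 to 8868 when 1 library was left out. It was 2208 and 2336 on log2 TPM with pseudocounts of 1 and 0.1, 1431 against a 2-fold change, 9768 without replicate 2 of both days and 0 (2758 at an unadjusted p under 0.05, edgeR) without day 9 replicates 1 and 3, which leaves 1 library at day 9. The number of differing day changes (1149) ranged from 665 to 2288 with 1 library left out, lowest without cKO day 5 replicate 3 or WT day 9 replicate 2 and highest without cKO day 5 replicate 2. It was 436 and 534 on TPM and 525 without cKO day 9 replicates 1 and 3. With the replicate number as a block, 1942 genes changed in cKO and 759 differed. Same-numbered cKO libraries had correlations of -0.36, -0.64 and -0.46, and same-numbered WT libraries 0.218, -0.094 and 0.319. In cKO, replicate 2 had the unlike structural RNA share at both days, the highest at day 5 and the lowest at day 9. The correlations therefore cannot decide whether the numbers pair the libraries. The change of Fabp7 turned to 0.003 on ranks, that of Dlx2 ranged from -1.869 to 0.017 with 1 library left out, highest without cKO day 5 replicate 3, and that of Lmnb1 turned to -0.026 and -0.030 on TPM with pseudocounts of 1 and 0.1. None of these 3 genes was called by edgeR in the 6 libraries. The causes were not tested. Over all named genes and alternatives, 2583 values kept direction and side of the threshold, 352 lost the call and 11 gained it. The structural RNA term, fitted for cKO only, and the values within libraries of low and of high share were chosen after seeing the data. Depth limits cKO day 9 replicates 1 and 3 most.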

Other observations

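In 32 genes the day change was called in opposite directions in the 2 genotypes, 29 of them falling in cKO and rising in WT, and the difference was called for each by edgeR. Those that fell in cKO include matrix genes: Eln, which encodes elastin (log2 fold change -1.51 in cKO and 0.94 in WT), Fbn1, which encodes fibrillin (-0.998 and 0.876), Npnt (-3.01 and 0.98) and Ccdc80 (-1.36 and 1.53). They also include Wnt and Notch genes: the ligand Wnt4 (-0.99 and 0.87), the receptor Fzd9 (-1.18 and 1.26), the Notch feedback gene Nrarp (-0.83 and 1.61) and the ubiquitin ligase gene Neurl1b (-2.47 and 1.39). The 3 that rose in cKO and fell in WT were Chn2 (0.69 and -0.62), Dusp15 (1.14 and -1.10) and Tmem108 (0.79 and -1.03). These genes were chosen after their values were seen.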
